A study of Arabidopsis thaliana with 42 samples.

Results

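CYP71B22, CYP71B23 and CYP71B26 are 3 cytochrome P450 genes of Arabidopsis thaliana. They were taken by name from the array annotation, as the probe sets assigned to these genes and to no other, and were followed over all 14 groups of the series. The array named 13356 genes with a probe set of their own, of which 19 were CYP71B genes, out of 37 in the TAIR10.1 annotation. CYP71B22 (AT3G26200, probe set 257636_at), CYP71B23 (AT3G26210, 257623_at) and CYP71B26 (AT3G26290, 257628_at) are protein-coding genes on chromosome 3. Each had 1 probe set, without the suffix that marks a target shared between genes.

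Cytochrome P450s are haem enzymes of the endoplasmic reticulum that use oxygen and electrons from a reductase to oxidise small molecules, and plants carry large families of them. CYP71B is one of the largest Arabidopsis subfamilies and lies mostly in tandem runs of related genes. Its best known member, CYP71B15 or PAD3, makes the last steps of the antimicrobial compound camalexin, and CYP71B6 acts on the related indole-3-acetonitrile. The substrates of most other members are not established, so the genes are described here by where their transcripts were found. A hybridisation signal on an array of tandem relatives can hold some signal of a close relative.

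The series held 42 arrays in 14 groups of 3, all of plants grown on soil in continuous light. Col-0, the reference strain, gave 7 groups: hypocotyl (the stem below the seed leaves), vegetative shoot apex, vegetative apex with young leaves, apex at the transition to flowering before bolting, inflorescence apex after bolting, the first node, and the second internode of the stem. Bolted inflorescence apices of the single mutants ag-12, ap1-15, ap2-6, ap3-6, clv3-7, lfy-12 and ufo-1 made up the other 7, each listed in a Col-0 background. The node pieces also held a little stem on either side of the branch point, part of the side shoot and the base of a cauline leaf, per the labels, and the Col-0 inflorescence apices are noted to include young flowers, a note the mutants do not carry. Plant ages are not given in these sources. Nor do the labels tie the 3 samples of each group to separate plants, so p-values measure the spread between arrays, part or all of which may be technical.

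Values below are MAS5 signals, linear intensities scaled by array, and a level can be compared between groups but not between genes. Changes are differences of log2(signal + 8.01) between group means, the first-named group minus the second, ± the standard error of the limma fit. They understate the change of a gene at low signal. Adjusted p-values under 0.05 are calls, and the share of all tested probe sets called in a comparison is given beside each first count. In these bulk samples fewer cells with a transcript and less transcript per cell cannot be told apart.

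Array medians lay between 36.3 and 45.7. The 6 arrays of the node and the Col-0 inflorescence apex stood apart in a bacterial control transcript (dap), with a log2 signal of 7.61 to 8.35 against 3.04 to 3.45 on the other 36, and their titles carry a 2 after the replicate letter. Every comparison of these 2 groups with another group therefore also compares these array sets, and each was repeated with another reference where one existed. RNA quality, read as the log2 3'/5' signal ratio of control transcripts, had a group mean of 1.76 for the vegetative apex, 2.16 at the transition, 2.35 in the Col-0 inflorescence apex and 2.72 in ufo-1, and calls that were lost with it as a covariate are named below. The tissue labels were checked against marker lists. Signals of 3 measured secondary wall genes (IRX15, IRX15-L and GUT2, of 8 listed) summed to 3080 to 3400 in the internode, 1460 to 1650 in the node, 219 to 238 in the hypocotyl and at most 91.9 in any apex. The 2 measured markers of dividing cells (HTB2 and PRL, of 5) summed to 629 to 1740 over the apices and to 55.8 to 66.3 in the internode. No marker was listed at 0.

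**Figure D1:**
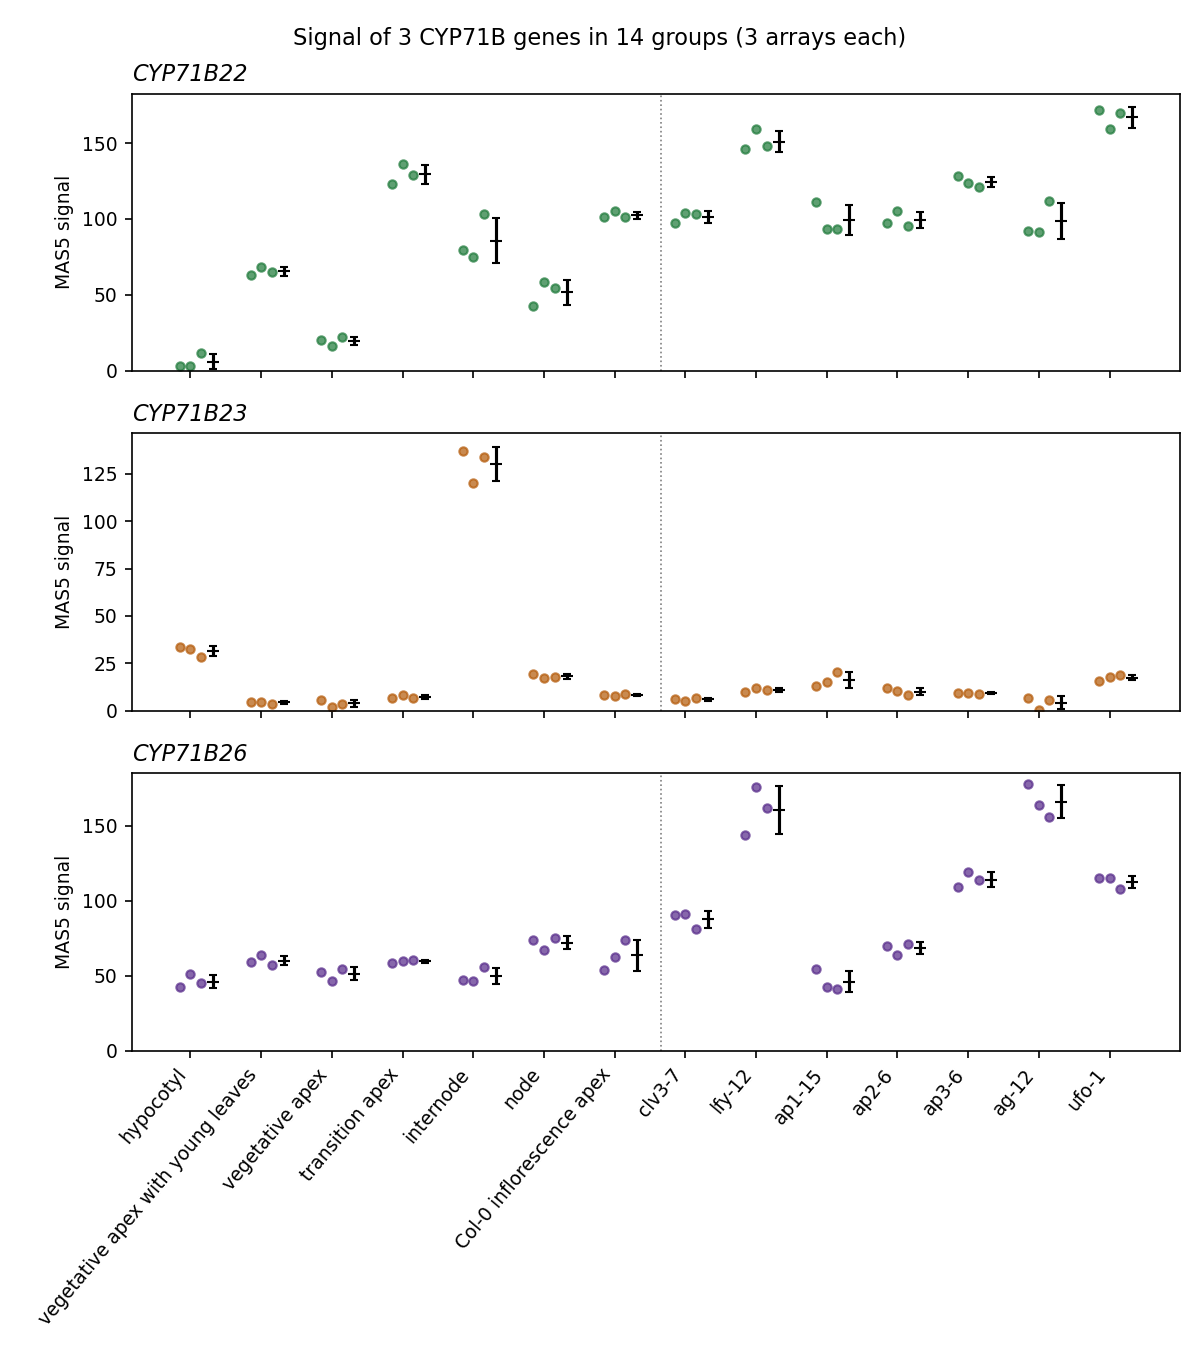
MAS5 signals (vertical axes, linear, from 0) of CYP71B22, CYP71B23 and CYP71B26 on each of 42 arrays, by group. Points are arrays, black bars are means ± SD of 3 arrays, and the dotted line separates the 7 Col-0 organs from the 7 mutants. CYP71B22 is lowest in the hypocotyl (5.88 ± 5.0), CYP71B23 stands alone in the internode (131 ± 8.9), and CYP71B26 is highest in ag-12 (166 ± 11) and lfy-12 (161 ± 16).

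CYP71B22 was low in the hypocotyl and the vegetative apex and high in the apex at the transition to flowering. Its signals were 2.87, 3.13 and 11.6 in the 3 hypocotyl samples, and 19.9, 16.5 and 22.1 in the vegetative apex. With young leaves left on the vegetative apex they were 62.8, 68.1 and 65.2, and at the transition they were 123, 136 and 129. These 4 groups did not overlap, and the third hypocotyl sample was the highest of its group. The transition apex exceeded the vegetative apex by 2.32 ± 0.16 (adjusted p = 1.0e-11, limma), 5.01-fold on the offset scale, in a comparison that called 53.6% of all probe sets. The apex with young leaves exceeded the apex without them by 1.42 ± 0.16 (adjusted p = 9.6e-08), where 48.2% were called.

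In the Col-0 inflorescence apex all CYP71B22 signals were below those of the transition apex, but the difference did not pass the test. They were 101, 105 and 101, and the change from the transition apex, -0.32 ± 0.16, did not pass (adjusted p = 0.14), in a comparison that called 32.2%. It passed when only the 2 groups were fitted (adjusted p = 0.0033), and was -0.13 (adjusted p = 0.31) with the mean of the 7 mutants as the inflorescence apex. In the stem the second internode gave 79.4, 74.9 and 103 and the first node 42.5, 58.4 and 54.5. The internode was above the node by 0.64 ± 0.16 (adjusted p = 0.0013, 57.2% called), and the node was below the inflorescence apex by 0.89 on the log2 scale (-0.89 ± 0.16, adjusted p = 1.7e-05, 82.4% called).

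The internode and the inflorescence apex overlapped for CYP71B22, with a change of -0.25 ± 0.16 (adjusted p = 0.15, 84.8% called). This passed without the third internode sample (-0.37, adjusted p = 0.049) and with the mean of the 7 mutants as reference (-0.43, adjusted p = 1.2e-04), but was -0.11 under quantile normalization (adjusted p = 0.5) and -0.01 under median scaling (adjusted p = 0.96). The hypocotyl lay below the vegetative apex by -1.04 ± 0.16 (adjusted p = 2.9e-06, 73.8% called) and below the internode by -2.80 ± 0.16 (adjusted p = 5.5e-14, 75.9% called). Because the hypocotyl signals were near the floor of the scale, these sizes depended on the offset: with 4 times the offset they were -0.45 and -1.63, and with the offset divided by 4 the former was -1.61. The difference made by young leaves on the vegetative apex was 0.92 with 4 times the offset.

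The measured green leaf genes did not follow CYP71B22 over these stages. The summed signal of 6 such genes (LHCB4.2, PRK, SBPASE, RCA, HPR and PSAN, of 6 listed) was 10400 to 11400 in the vegetative apex with young leaves, 5170 to 5270 in the apex without them and 3030 to 3170 at the transition. It thus moved with CYP71B22 in the former comparison and against it in the latter. Of a list of 6 flowering genes 4 were measured (UFO, AGL42, AGL24 and FD), and LFY and AP1 were not. The 4 summed to 152 to 178 before and to 400 to 427 at the transition. All 4 were called higher there (30.6% of all probe sets higher). With young leaves, where CYP71B22 was higher, these 4 genes summed to 96.3 to 111 and 2 were called lower (29.5% of all lower). Their sum was larger in the node (312 to 346) than in the Col-0 inflorescence apex (201 to 211). It is therefore not read as an amount of floral meristem. The 2 measured epidermal genes (FDH and WSD1, of 7) summed to 55.0 to 64.4 in the vegetative apex, 94.1 to 100 with young leaves and 276 to 312 at the transition. In the hypocotyl, where CYP71B22 was lower, they summed to 85.9 to 102, but the 2 genes went opposite ways. Against the vegetative apex 1 was called higher there and 1 lower (35.4% and 38.3% of all probe sets). WSD1 had its lowest group mean in the hypocotyl, at 1.19. The part of these cell types in the CYP71B22 signal was not tested.

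CYP71B23, the neighbour of CYP71B22 on the chromosome, was high in the internode. Its signals there were 137, 120 and 134. The hypocotyl followed with 33.8, 32.4 and 28.3 and the node with 19.4, 17.1 and 17.6. All 12 arrays of Col-0 apices lay between 1.95 and 8.96, so the internode, the hypocotyl, the node and the apices were separate, with no overlap. Only 7 of the 42 arrays placed this gene above their own 40th percentile of signal (19.7 to 27.4), and 6 of them were the internode and hypocotyl arrays. The gene therefore entered the organ tests through the groups in which it was high, either of which alone would have passed it. Its calls in comparisons with those groups were made without the filter too.

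The internode exceeded the node by 2.41 ± 0.13 (adjusted p = 4.8e-14, limma), 5.32-fold on the offset scale. It exceeded the inflorescence apex by 3.09 ± 0.13 (adjusted p = 2.8e-17) and the hypocotyl was below it by -1.81 ± 0.13 (adjusted p = 2.5e-12). The hypocotyl exceeded the vegetative apex by 1.75 ± 0.13 (adjusted p = 6.8e-12), and the node exceeded the inflorescence apex by 0.68 ± 0.13 (adjusted p = 2.6e-05). This node comparison is between groups in which no array placed the gene above its own 40th percentile. With the mean of the 7 mutants in place of the Col-0 inflorescence apex, the internode difference was 2.95. Multiplying the offset by 4 brought the last 2 differences of CYP71B23, hypocotyl over vegetative apex and node over inflorescence apex, to 0.83 and 0.31, and the internode over the inflorescence apex to 2.01.

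Among the apices CYP71B23 was at low signal throughout. The vegetative apex with young leaves gave 4.67, 4.73 and 3.66 and the vegetative apex 5.87, 1.95 and 3.62, which overlapped (0.08 ± 0.13, adjusted p = 0.64). The transition apex, with 6.80, 8.43 and 6.74, was above the vegetative apex by 0.39 ± 0.13 (adjusted p = 0.012), a call lost without the second vegetative apex sample (0.27, adjusted p = 0.09) and without the second transition sample (adjusted p = 0.054), and with the 3'/5' control ratio in the fit (0.34, adjusted p = 0.082). The size was 0.73 with the offset divided by 4 and 0.14 with 4 times the offset (adjusted p = 0.06). The inflorescence apex gave 8.24, 7.58 and 8.96 and overlapped the transition apex (0.09 ± 0.13, adjusted p = 0.65).

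The secondary wall genes were also highest in the internode, but the node, with wall sums of 1460 to 1650, had less CYP71B23 than the hypocotyl, with wall sums of 219 to 238. Green leaf sums were 11500 to 13300 in the internode and 9190 to 9290 in the node. Epidermal sums were 1070 to 1140 in the internode, 624 to 627 in the node and 85.9 to 102 in the hypocotyl. These sums hide a split between the 2 genes. Against the inflorescence apex 1 was called higher and 1 lower in the internode (37.9% and 46.9% of all probe sets). The node gave the same counts (36.4% and 46.1% of all). The part of these cell types in the CYP71B23 signal was not tested.

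CYP71B26 differed little between the Col-0 organs. All 21 arrays lay between 42.4 and 75.4, and each was above its own 40th percentile. The node was highest, with 73.5, 66.9 and 75.4, and the hypocotyl lowest, with 42.4, 51.0 and 44.8. The group means spanned 0.57 on the log2 scale, against 3.36 for CYP71B22 and 3.56 for CYP71B23. An F test for any difference among the 7 organs still passed (adjusted p = 1.2e-04), as it did for CYP71B22 (1.5e-15) and CYP71B23 (3.3e-18), but it also called 98.4% of all probe sets. Without the node and Col-0 inflorescence arrays, a choice made after seeing the data, the F test gave adjusted p = 0.0089 for CYP71B26.

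Of the 8 organ comparisons CYP71B26 passed in 2. The internode, with 47.0, 46.2 and 55.8, was below the node by -0.47 ± 0.10 (adjusted p = 2.8e-04), and the groups did not overlap. It was also below the inflorescence apex (53.8, 62.6 and 74.0) by -0.30 ± 0.10 (adjusted p = 0.0073). Those groups overlapped, and the call was lost without the third inflorescence sample (-0.20, adjusted p = 0.077), under quantile normalization (-0.10, adjusted p = 0.37) and under scaling to array medians (-0.08, adjusted p = 0.49). With the mean of the 7 mutants in place of the Col-0 inflorescence apex the internode difference was -0.90, that of the node turned to -0.43 and that of bolting became 0.67. These values set Col-0 organs against mutant apices, several of them called higher than Col-0 for this gene. They therefore also hold genotype differences and are not organ differences alone.

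The other 6 organ differences of CYP71B26 did not pass. They were 0.20 for young leaves on the vegetative apex (adjusted p = 0.096), 0.19 for the transition (adjusted p = 0.11), 0.07 for bolting (adjusted p = 0.62), 0.17 for the node over the inflorescence apex (adjusted p = 0.12), -0.13 for the hypocotyl against the vegetative apex (adjusted p = 0.25) and -0.09 against the internode (adjusted p = 0.40), each ± 0.10. Another scaling of the arrays moved 4 of these past the threshold. Under median scaling they were 0.27 for young leaves (adjusted p = 0.035), 0.33 for the node over the inflorescence apex (adjusted p = 0.0053) and -0.34 for the hypocotyl against the internode (adjusted p = 0.0044). Quantile normalization gave -0.23 for the hypocotyl against the vegetative apex (adjusted p = 0.048).

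Among the inflorescence apices CYP71B26 was higher than Col-0 in 5 mutants and lower in 1, and its group means spanned 1.69 on the log2 scale, against 0.72 for CYP71B22. The mutants change the flowers that the apex carries. In background terms, clv3 mutants have enlarged meristems, lfy mutants form leafy shoots in place of many flowers, ap1 and ap2 mutants alter the outer floral organs, ap3 mutants lack normal petals and stamens, ag mutants replace stamens and carpels with further perianth organs, and ufo mutants have reduced and irregular petals and stamens. CYP71B26 signals were 178, 164 and 156 in ag-12 and 144, 176 and 162 in lfy-12. They were 109, 119 and 114 in ap3-6, 115, 115 and 108 in ufo-1, and 90.5, 91.3 and 81.0 in clv3-7. All 15 of these arrays were above all 3 of Col-0 (53.8, 62.6 and 74.0).

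Against Col-0, CYP71B26 was higher by 1.29 ± 0.10 in ag-12 (adjusted p = 2.0e-10, limma, 26.9% of probe sets called), 2.44-fold on the offset scale. The difference was 1.24 ± 0.10 in lfy-12 (adjusted p = 2.5e-10, 27% called). It was 0.78 ± 0.10 in ap3-6 (adjusted p = 1.1e-06, 23.8% called) and 0.76 ± 0.10 in ufo-1 (adjusted p = 2.7e-06, 18.8% called). In clv3-7 it was 0.43 ± 0.10 (adjusted p = 0.003, 19.1% called). ap1-15 went the other way, with 54.2, 42.2 and 41.4 and a change of -0.41 ± 0.10 (adjusted p = 0.0028, 27.5% called), although its highest array overlapped the lowest of Col-0. ap2-6 gave 70.0, 63.8 and 71.4 and 0.10 ± 0.10 (adjusted p = 0.51, 20.7% called).

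The Col-0 arrays are the set that stands apart in the dap control, so genotype and array set cannot be told apart in these comparisons. Differences among the mutants do not rest on Col-0. Against the mean of the other 6 mutants, CYP71B26 was higher in ag-12 (0.80), in lfy-12 (0.75) and in ap3-6 (0.21, adjusted p = 0.039), and lower in ap1-15 (-1.17). Of the mutants ag-12 had the highest and ap1-15 the lowest mean, so their signs were fixed by that order. Each reference also holds mutants that were called higher than Col-0, so these values do not repeat the comparisons with Col-0. With that reference the difference was 0.19 in ufo-1 (adjusted p = 0.073), and the sign turned in clv3-7 (-0.20, adjusted p = 0.041) and ap2-6 (-0.58, adjusted p = 1.8e-06). An F test over the 8 genotypes gave adjusted p = 1.1e-13 for CYP71B26, where 70.1% of all probe sets were called, and 2.8e-13 without Col-0, a choice made after seeing the data.

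**Figure D2:**
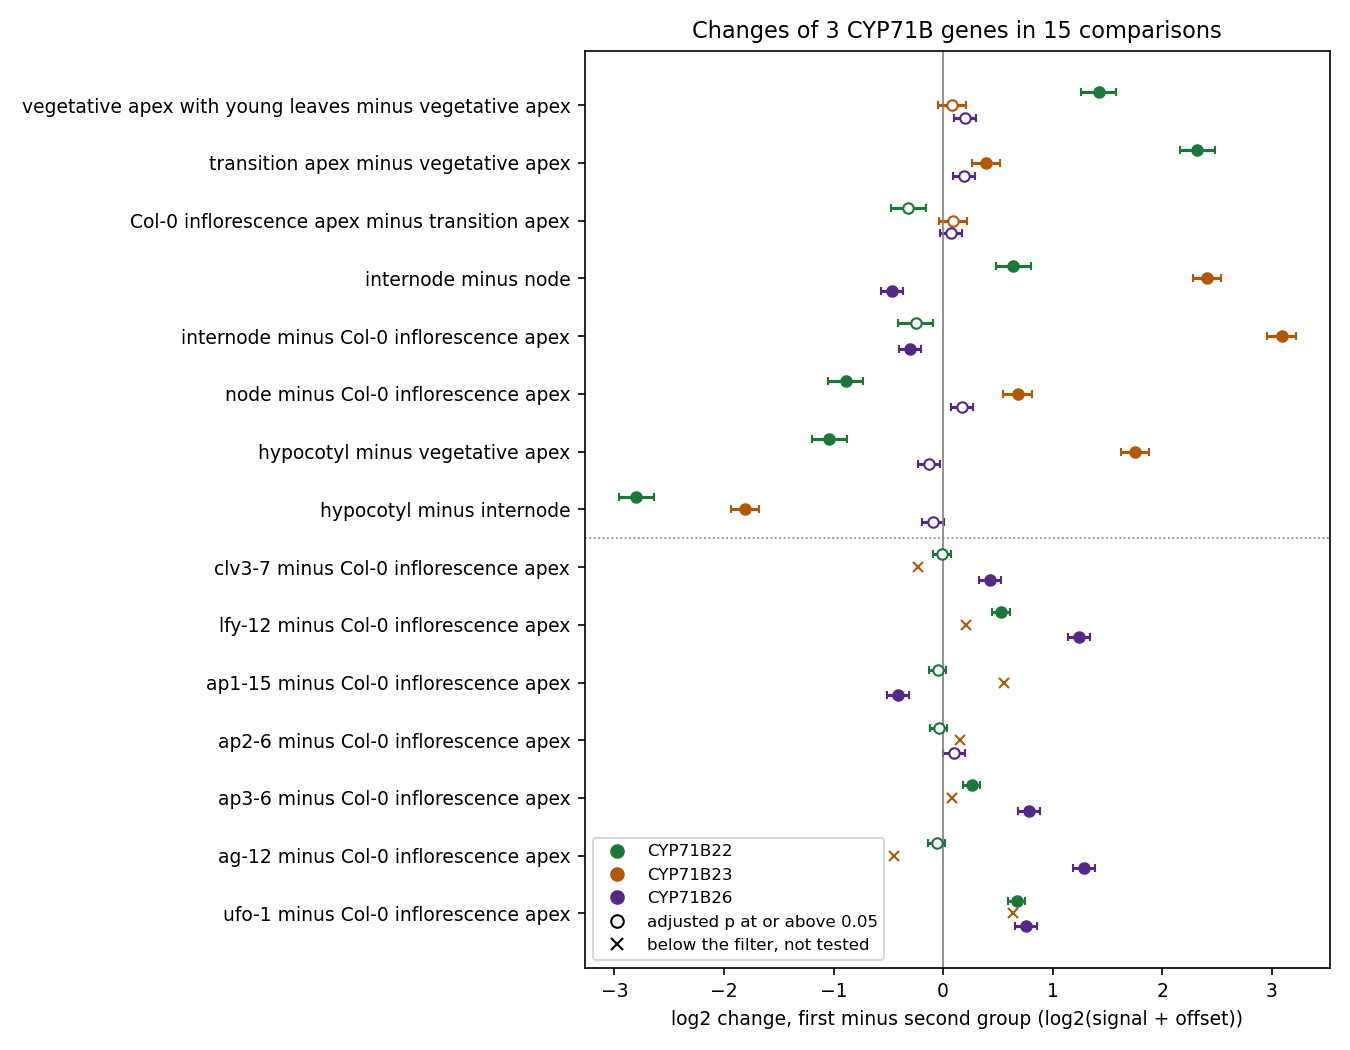
Log2 changes (horizontal axis, log2(signal + offset), first-named minus second group) of the 3 genes in 8 organ and 7 mutant comparisons. Points are fitted differences, bars are standard errors, filled points have an adjusted p under 0.05, and crosses mark CYP71B23 in the mutants, where it was below the filter. CYP71B23 reaches 3.09 in the internode against the inflorescence apex, and CYP71B26 reaches 1.29 in ag-12.

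Leaf and anther markers also differed between the genotypes. Green leaf sums were 2830 to 2900 in Col-0, 5020 to 5080 in lfy-12, 4240 to 4390 in ag-12, 3570 to 3730 in ufo-1, 3090 to 3210 in ap3-6, 2860 to 3030 in ap2-6, 2720 to 2800 in clv3-7 and 2150 to 2280 in ap1-15. All 6 genes were called higher in lfy-12 (13.3% of all probe sets higher) and ag-12 (12.5%), and all 6 lower in ap1-15 (13.5% lower). These are the directions of CYP71B26. In ufo-1 5 were higher (9.4%) and in ap3-6 3 (11.3%), with 0 lower in either. In ap2-6, where CYP71B26 did not pass, 1 was higher (10.2%). In clv3-7, where CYP71B26 was called higher, 1 was higher and 1 lower (10.4% and 8.7% of all). In Col-0 organs, by contrast, the green leaf sum was 11500 to 13300 in the internode and 5170 to 5270 in the vegetative apex, while CYP71B26 was 49.7 ± 5.3 and 51.1 ± 4.4.

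The 2 measured anther genes (AMS and SPL, of 6), both at low signal, summed to 28.0 to 34.9 in Col-0. In lfy-12 they summed to 1.88 to 10.3, in ag-12 to 1.31 to 12.6, in ap3-6 to 2.1 to 6.09, in ufo-1 to 12.4 to 13.4 and in clv3-7 to 20.5 to 23.9, all below Col-0. They summed to 36.8 to 39.8 in ap1-15 and to 58.3 to 62.1 in ap2-6. Of the 2 genes, 1 was called lower in each of lfy-12 (13.7% of all probe sets lower), ag-12 (14.4%), ap3-6 (12.5%) and ufo-1 (9.38%). In clv3-7 and ap1-15 0 were called. In ap2-6, where CYP71B26 did not pass, 1 was called higher (10.2% of all higher). Neither gene passed the organ filter, which takes in the Col-0 inflorescence apex arrays. Both therefore entered the genotype tests through arrays that included mutants, and their sum was highest in ap2-6. The calls of these 2 genes may thus follow in part from the filter. Vegetative apices, with anther sums of 6.19 to 7.89, had CYP71B26 at 51.1 ± 4.4. The part of leaf and anther tissue in the genotype differences was not tested.

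**Figure D3:**
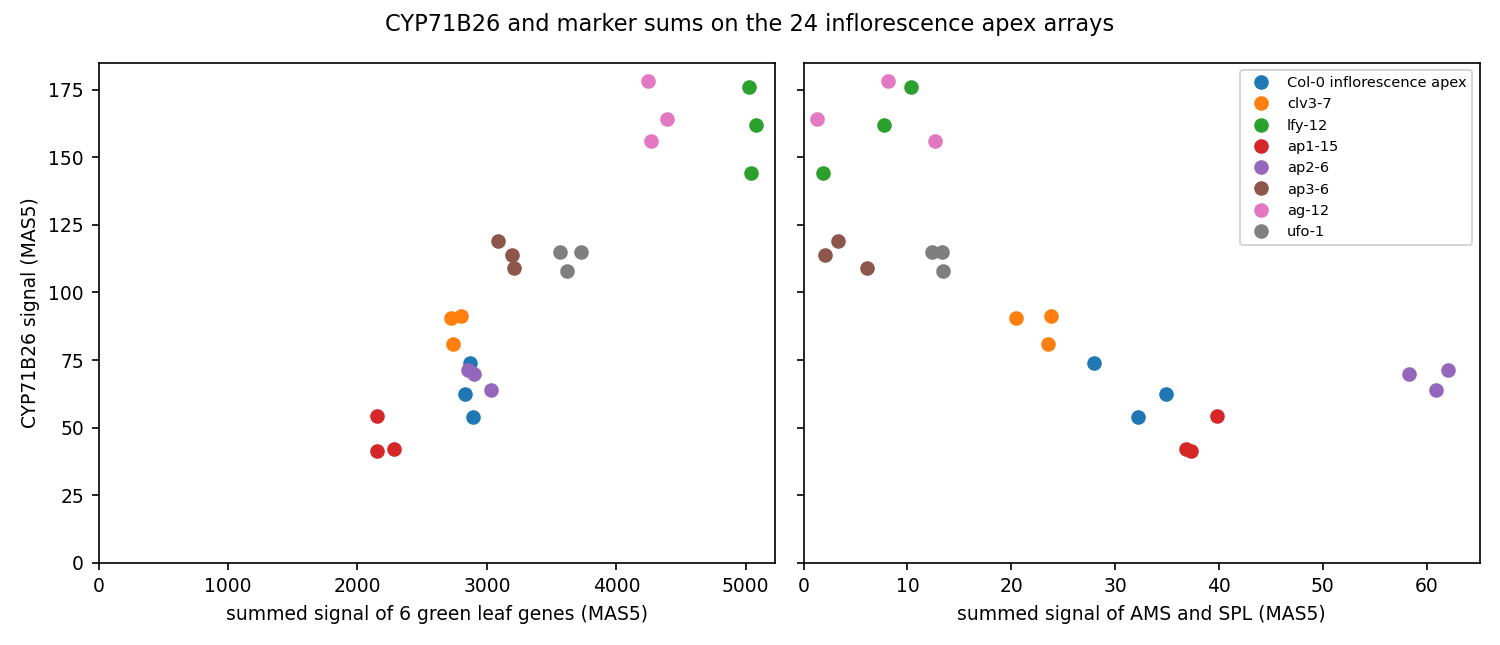
CYP71B26 signal (vertical axis, MAS5) against the summed signal of 6 green leaf genes (left) and of the anther genes AMS and SPL (right) on the 24 inflorescence apex arrays, 1 point an array, coloured by genotype. The ag-12 and lfy-12 arrays lie at high leaf and low anther sums, and the ap1-15 arrays at the lowest leaf sums (2150 to 2280).

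CYP71B22 changed in fewer of the mutants. It was higher in ufo-1, with 172, 159 and 170 (0.67 ± 0.08, adjusted p = 5.7e-07), and in lfy-12, with 146, 159 and 148 (0.53 ± 0.08, adjusted p = 9.6e-06). In ap3-6 it gave 128, 124 and 121, a difference of 0.26 ± 0.08 (adjusted p = 0.015). None of these 3 mutants overlapped Col-0. The ap3-6 call was lost without the first Col-0 sample (adjusted p = 0.052), without the first ap3-6 sample (adjusted p = 0.054), in a fit of all 42 arrays (adjusted p = 0.15), with the 3'/5' ratio of the controls in the fit (0.23, adjusted p = 0.088) and against the other mutants (0.09, adjusted p = 0.29).

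In the remaining 4 mutants CYP71B22 overlapped Col-0 and did not pass. clv3-7 gave 97.0, 104 and 103 (-0.01 ± 0.08, adjusted p = 0.93), and ap2-6 gave 97.0, 105 and 95.4 (-0.04 ± 0.08, adjusted p = 0.76). ap1-15 gave 111, 93.4 and 93.4 (-0.05 ± 0.08, adjusted p = 0.71), and ag-12 gave 92.0, 91.5 and 112 (-0.06 ± 0.08, adjusted p = 0.64). The mutant with the highest mean of CYP71B26, ag-12, thus had CYP71B22 at 98.5 ± 12, against 102 ± 2.6 in Col-0. Against the other mutants these 4 were lower, by -0.23 in clv3-7 (adjusted p = 0.0037), -0.27 in ap2-6 (adjusted p = 0.0018), -0.27 in ap1-15 (adjusted p = 8.2e-04) and -0.28 in ag-12 (adjusted p = 7.1e-04). That reference holds the raised ufo-1 and lfy-12, and the sign of ag-12, the lowest of the mutants, was fixed by the order. The F test over genotypes gave adjusted p = 2.8e-09 for CYP71B22, and 1.5e-08 without Col-0.

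CYP71B23 was near the floor of the arrays in the inflorescence apices and was left out of the genotype tests, since 1 of 24 arrays exceeded its own 40th percentile. The signals were 12.8, 15.2 and 20.6 in ap1-15 and 15.9, 17.5 and 18.8 in ufo-1. They were 9.77, 11.9 and 10.8 in lfy-12, 11.8, 10.2 and 8.27 in ap2-6, 9.41, 9.51 and 8.60 in ap3-6, 6.07, 4.91 and 6.72 in clv3-7 and 6.87, 0.283 and 5.61 in ag-12. The arrays of ap2-6 and ap3-6 overlapped those of Col-0 and the arrays of the other mutants did not. The share of all probe sets without overlap is not given here. At signals this low, with 3 arrays a group, the separation is not read as a difference. The differences of group means were 0.64 in ufo-1 and 0.56 in ap1-15, and without the filter these 2 had adjusted p = 0.015 and 0.024. The third largest, -0.45 in ag-12, had adjusted p = 0.076 without the filter and 0.023 in a fit of all 42 arrays, and 1 array at 0.283 weighed in it.

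Ordered by level over the 14 groups, the genes gave different sequences. CYP71B22 ran from ufo-1 (167 ± 6.9) and lfy-12 (151 ± 7.0) through the transition apex (129 ± 6.4) and ap3-6 (124 ± 3.2), which overlapped. Next came a run in which each neighbour overlapped the next: Col-0 inflorescence apex, clv3-7, ap2-6, ap1-15, ag-12 and the internode, with means from 102 down to 85.7. The vegetative apex with young leaves (65.4 ± 2.7), the node (51.8 ± 8.3), the vegetative apex (19.5 ± 2.8) and the hypocotyl (5.88 ± 5.0) were each separate.

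CYP71B23 ran from the internode (131 ± 8.9) and the hypocotyl (31.5 ± 2.9), both separate, to the node (18.0 ± 1.2), ufo-1 (17.4 ± 1.4) and ap1-15 (16.2 ± 4.0), which overlapped, and then to groups at or below 10.8. CYP71B26 ran from ag-12 (166 ± 11) and lfy-12 (161 ± 16), which overlapped, to ap3-6 (114 ± 5.3) and ufo-1 (113 ± 3.6), which overlapped, and to clv3-7 (87.6 ± 5.7), which was separate. From the node (71.9 ± 4.5) down to ap1-15 (45.9 ± 7.2) each neighbour overlapped the next except between the transition apex and the vegetative apex.

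The 3 genes did not share one pattern. Over the 14 group means on the log2 scale, Pearson's r was 0.55 (Spearman's rho 0.52) for CYP71B22 with CYP71B26, -0.14 (-0.02) for the neighbours CYP71B22 with CYP71B23, and -0.35 (-0.26) for CYP71B23 with CYP71B26. These are descriptions over groups that share arrays and scaling. Within the 8 inflorescence genotypes CYP71B22 and CYP71B23 had r = 0.54 (rho 0.50), and both were higher in ufo-1 than in Col-0 on all arrays. CYP71B23 was near the floor in these genotypes, with group means from 4.26 to 17.4 and 1 of 24 arrays above its own 40th percentile. The vegetative apex with young leaves shows the contrast in organs, since CYP71B22 was 65.4 ± 2.7 there and CYP71B23 4.35 ± 0.60, while the hypocotyl had the reverse, 5.88 ± 5.0 and 31.5 ± 2.9, each to be read against the same gene in other groups.

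For each gene the 5 most similar genes were taken by Pearson's r over the 14 group means, among 8965 others that passed the filter. Because they were picked on these same means, a highest or lowest group shared with the member follows largely from that choice. It is a description only. The 5 of CYP71B22 were AT5G50915 (0.93), WSD1 (0.92), AT5G52450 (0.914), AT1G51720 (0.904) and BZIP61 (0.90). WSD1 makes wax esters in the stem epidermis, and BZIP61 is a bZIP transcription factor. WSD1 was highest in lfy-12, at 397, and lowest in the hypocotyl, at 1.19, and all 5 had their lowest mean in the hypocotyl, as CYP71B22 did. A high r does not mean a like size of change. Group means of AT1G51720 ran only from 81.9 to 121, and those of CYP71B22 from 5.88 to 167.

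The 5 of CYP71B23 were AT2G44525 (0.943), AT2G07180 (0.94), AT1G01725 (0.94), AT3G13062 (0.938) and AT1G52320 (0.937), and each was highest in the internode. The 5 of CYP71B26 were AT5G23970 (0.879), AT1G75880 (0.864), AT3G56260 (0.848), IAA33 (0.843), which belongs to the Aux/IAA family of auxin response repressors, and RXF26 (0.819), and each was highest in ag-12. Over 0.9 there were 37 genes for CYP71B23, 4 for CYP71B22 and 0 for CYP71B26.

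On chromosome 3 the 3 genes lie in a run of 18 CYP71B genes from CYP71B16 to CYP71B37, in which CYP71B22 and CYP71B23 are neighbours and CYP71B26 lies further along, past CYP71B3, CYP71B24, CYP71B25 and CYP71B4. Of the 18 genes 11 had a probe set of their own and 7 passed the organ filter. CYP71B24, separated from CYP71B23 only by CYP71B3, was also high in the internode, at 64.4 ± 5.4, with 18.5 in the node and at most 7.43 in the means of the other groups. It passed the filter through the internode alone, so its differences there are given without a test: 1.45 over the node and 2.31 over the inflorescence apex on the log2 scale.

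The hypocotyl differed between these 2 genes. CYP71B24 was at 3.56 in the hypocotyl and 3.71 in the vegetative apex (0.00 ± 0.16, adjusted p = 0.99), where CYP71B23 was called higher in the hypocotyl; the difference between the genes was not tested. A probe set shared by CYP71B19 and CYP71B20, which lie before CYP71B22, was likewise highest in the internode, at 138 ± 3.4, with 71.4 ± 1.2 in the node and 35.4 ± 3.9 in the inflorescence apex. In the mutants this probe set was at 58.9 ± 6.4 in ag-12, 56.1 ± 3.3 in lfy-12 and 19.3 ± 3.5 in ap1-15, the directions of CYP71B26. It was at 39.4 ± 2.7 in ufo-1, 34.8 ± 4.2 in ap3-6, 31.4 ± 4.9 in clv3-7 and 17.5 ± 9.1 in ap2-6. These differences are given without a test. CYP71B21, next to CYP71B22 on that side, and CYP71B25, close to CYP71B26, were at most 2.62 and 5.45 in any group mean and passed no filter.

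**Figure D4:**
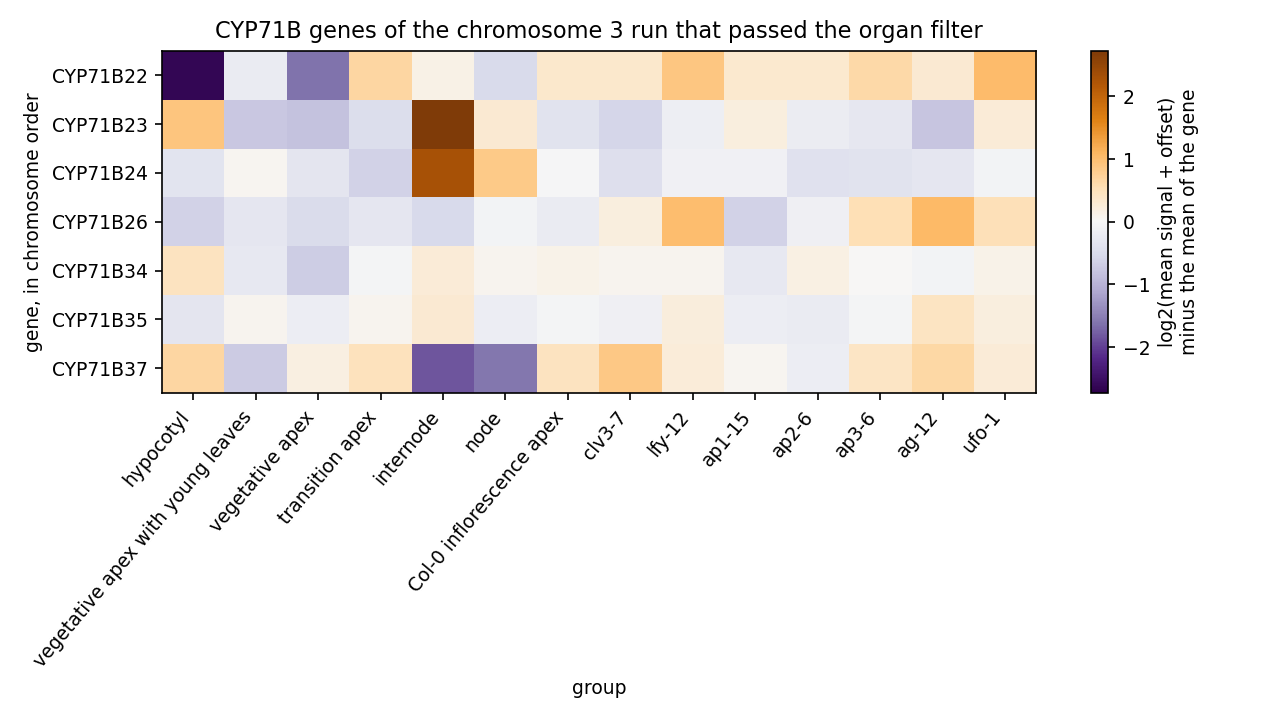
CYP71B genes of the chromosome 3 run that passed the organ filter, in chromosome order (rows), over the 14 groups (columns). Colour is log2(mean signal + offset) minus the gene's own mean over groups. The internode column is high for CYP71B23 and CYP71B24 and low for CYP71B37, and the hypocotyl column is low for CYP71B22.

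At the far end of the run the other genes had patterns of their own. CYP71B37 was low in the internode, at 6.39, and the node, at 9.24, with an internode change of -2.34 ± 0.20 against the inflorescence apex (adjusted p = 6.4e-11), the reverse of CYP71B23. CYP71B34 was highest in the hypocotyl, at 76.0 ± 2.8 (1.15 ± 0.10 over the vegetative apex, adjusted p = 1.1e-10). CYP71B36 was at 30.6 ± 4.6 in the hypocotyl and at most 4.33 in the means of the other groups, and passed no filter. CYP71B35 had a mean below 30 in every group and, like CYP71B26, had its highest mean in ag-12, at 27.6 ± 2.4.

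Outside the run, 4 more genes were tested in the organs. CYP71B6 was highest in the hypocotyl (218 ± 4.9), with 168 in the internode and 65.4 in the inflorescence apex, and its hypocotyl difference from the vegetative apex was 1.35 ± 0.07 (adjusted p = 3.6e-14). CYP71B29 was at 60.8 ± 4.3 in the hypocotyl and at most 11.9 elsewhere in the group means, and it passed the filter through the hypocotyl alone, so its difference there is given without a test (2.50 on the log2 scale over the vegetative apex). CYP71B5 was at 60.4 ± 3.5 in the hypocotyl and 49.0 in the internode, 2.31 ± 0.14 above the inflorescence apex (adjusted p = 1.4e-13). CYP71B28 was at 109 ± 7.4 in the internode, 1.12 ± 0.10 above the inflorescence apex (adjusted p = 3.8e-10).

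Of the 34 CYP71B genes other than the members, 16 had their own probe set and 8 passed the organ filter. In the hypocotyl 6 of these 8 were called higher than in the vegetative apex and 0 lower, where 35.4% of all probe sets were called higher; their median change was 1.18, against -0.04 over all probe sets. CYP71B22 was lower there and CYP71B26 did not pass. In the internode 5 of 8 were called higher than in the inflorescence apex and 1 lower (median 0.76, against -0.13 over all, with 37.9% called higher), and 4 of 8 higher than in the node (median 0.40, against -0.01 over all, with 27.4% higher). A gene that passed the filter through the group in which it was high had to differ, as CYP71B24 and CYP71B29 did. The hypocotyl count includes CYP71B29 and both internode counts include CYP71B24. These counts and medians are therefore raised by the filter and are not a like comparison with the shares over all probe sets.

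The remaining organ comparisons called between 2 and 6 of these 8 genes. Young leaves on the vegetative apex gave 4 higher and 1 lower, against 18.8% and 29.5% of all probe sets. The transition gave 2 and 1 (30.6% and 23.1% of all), and bolting in Col-0 gave 1 and 1 (15.7% and 16.5%). The node over the inflorescence apex gave 4 and 1 (36.4% and 46.1%), and the hypocotyl against the internode 3 and 3 (41.5% and 34.4%). The last counts include CYP71B29, higher, and CYP71B24, lower, which passed the filter through those groups. Among the inflorescence genotypes 5 of the 16 passed the filter. In ap1-15 3 were called lower (CYP71B28 by -0.44, CYP71B34 by -0.38 and CYP71B37 by -0.39), as CYP71B26 was, where 13.5% of all probe sets were called lower. In ap2-6 only CYP71B37 was lower, where 10.5% were. Of the same 5 genes, 1 was called higher in each of 4 mutants: CYP71B37 in clv3-7 (10.4% of all higher), CYP71B6 in lfy-12 (13.3%) and ap3-6 (11.3%) and CYP71B35 in ag-12 (12.5%). The CYP71B6 changes were small, at 0.27 and 0.24 (limma adjusted p = 0.019 and 0.04). The CYP71B35 change was 0.53 ± 0.20, at the threshold itself (adjusted p = 0.05 after rounding). That gene was above the 40th percentile on 13 of 42 arrays. In ufo-1 0 of the 5 were called in either direction (9.4% of all higher and 9.38% lower). CYP71B22, counted among the members, was higher in lfy-12, ap3-6 and ufo-1 as well.

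The wider P450 list added little, since only 20 of 248 other P450 genes had a probe set named for them, 16 of them CYP71B genes. In the hypocotyl against the vegetative apex 8 of the 10 tested were called higher, where 35.4% of all probe sets were, but these include the 6 CYP71B genes already counted. Of the camalexin and indole list 1 of 14 genes was measured, CYP71B6, described above, and none of the 5 electron donor genes. The 6 measured pathogen and wound response genes, of 20, summed to 268 to 313 in the internode, 768 to 995 in the hypocotyl, 1030 to 1090 in the Col-0 inflorescence apex and 1530 to 1670 in ufo-1. These sums rest mostly on THI2.1, with a mean of 510 over all arrays, against 131 for STZ, the next of the 6. In ufo-1, where CYP71B22 was highest, 1 of the 4 tested was called higher and 0 lower (9.4% and 9.38% of all probe sets), and their median change was -0.28. CYP71B22 was also called higher in lfy-12 and ap3-6. In lfy-12 1 of the 4 was higher and 2 lower (13.3% and 13.7% of all). In ap3-6 0 were higher and 4 lower (11.3% and 12.5% of all), and the 6 genes summed to 401 to 472.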

How the data were processed

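Biotin-labelled RNA of 42 samples was hybridised to single-colour Affymetrix arrays of 22810 probe sets. Per the labels and the submitters' processing notes, the deposited values are MAS5 signals, a linear intensity for each probe set. Its version and settings are not stated there. The mean after trimming 2% from each end was 100.01 on every array, and the values were not normalized further. The number of arrays limits the precision.

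An offset of 8.01 (the 25th percentile of signal, as a median of all arrays) was added before taking log2. Control probe sets were left out. Probe sets with at least 3 arrays above their own 40th percentile were kept: 16041 over the 21 organ arrays (14 residual degrees of freedom) and 14627 over the 24 inflorescence apex arrays (16 degrees of freedom). All 3 members passed the former and 2 the latter. Group means were fitted with limma 3.58.1 in R 4.3.3 (lmFit, eBayes with trend), with 15 two-sided contrasts, 2 F tests and Benjamini-Hochberg adjustment over all probe sets of a contrast. The code was tested on simulated data. Letters of replicates did not pair samples: same-letter deviations correlated at -0.09 to 0.08 in the organs and at -0.17 to 0.19 in the genotypes.

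The annotation gave 1 gene for 13513 probe sets, several for 503 and none for 8794, controls included. Of the single-gene assignments 13436 matched the TAIR10.1 gene table, used for names, chromosome and gene order. Since no source used here names the array's build, no coordinates are printed, and no sequences were used here. Genes other than the members were named by rule: CYP71B genes next to a member or at least 2-fold in a called contrast, counts for marker lists, and the 5 genes most correlated with each member. CYP71B35, CYP71B36 and CYP71B21, and the 3 genes called in ap1-15, were named for completeness after their values were seen. The members and lists were chosen with earlier results of these data known. Alternatives were quantile normalization, median scaling, other offsets, filters and variance priors, other samples in the fit, a replicate block, a covariate for the RNA 3'/5' control ratio, other reference groups and each array left out. Plots used matplotlib 3.10.9 (Python 3.11.15).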

Additional observations from a re-analysis of the deposited data

How the results depend on the processing

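Of the values of the 3 genes under all alternatives, 731 were counted as the same, 19 passed the threshold newly, 13 lost it and 8 changed sign. The cause of these shifts was not tested. For tested contrasts the same means that direction and side of the threshold were kept, and for F tests the side alone. CYP71B23 in the mutants had no main test. It was counted as the same where its value moved by less than the SD within the groups, whatever its adjusted p. Quantile normalization gave CYP71B26 0.28 for young leaves on the vegetative apex, -0.10 for internode against inflorescence apex, 0.30 for node against inflorescence apex, -0.23 for hypocotyl against vegetative apex and -0.32 for hypocotyl against internode. Median scaling gave 0.27, -0.08, 0.33 and -0.34 for all of these but the hypocotyl against the vegetative apex, and CYP71B22 in ap1-15 moved to 0.00. Median scaling also moved the median of all probe sets, for the internode against the inflorescence apex from -0.13 to 0.09 and for the hypocotyl against the internode from 0.07 to -0.17. With 4 times the offset, CYP71B23 at the transition was 0.14 and CYP71B22 was -0.26 for bolting and -0.20 for internode against inflorescence apex. With the RNA 3'/5' covariate CYP71B23 at the transition was 0.34 and CYP71B22 in ap3-6 was 0.23. Fits of only the 2 groups gave CYP71B22 -0.32 for bolting and -0.25 for internode against inflorescence apex, and the fit of all 42 arrays gave 0.26 in ap3-6. The replicate block changed no call of the 3 genes; with the replicate block CYP71B23 was 2.41 for internode against node. With the mean of the 7 mutants as reference, CYP71B26 was 0.67 for bolting and -0.43 for the node, and CYP71B22 was -0.43 for the internode. These values also hold genotype differences. Against the mean of the other 6 mutants CYP71B22 was -0.23 in clv3-7, -0.27 in ap1-15, -0.27 in ap2-6, 0.09 in ap3-6 and -0.28 in ag-12, and CYP71B26 was -0.20 in clv3-7, -0.58 in ap2-6 and 0.19 in ufo-1. Leaving out each replicate in turn gave CYP71B23 -0.04 to 0.20 for young leaves and 0.27 to 0.51 for the transition. It gave CYP71B26 -0.03 to 0.17 for bolting, -0.40 to -0.20 for internode against inflorescence apex and 0.07 to 0.27 for node against inflorescence apex, the last passing without the third inflorescence sample. It gave CYP71B22 -0.37 to -0.17 for internode against inflorescence apex, -0.03 to 0.02 in clv3-7 and 0.24 to 0.28 in ap3-6. The count of all probe sets called in ufo-1 fell from 2747 to 1255 with the 3'/5' covariate, and in clv3-7 it rose from 2793 to 4778 against the other mutants.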
